A study of Oryza sativa with 12 samples.

Results

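The response of wild-type Tainung 67 (TNG67) rice shoots to salt was measured on 6 of the 12 microarrays of the study, 3 arrays titled as salt-treated and 3 titled as control. All 6 arrays carried RNA from the aerial parts of 8-day-old TNG67 seedlings, a *japonica* cultivar without a transgene. The seedlings had grown for 7 days on basal medium and were then kept for 24 h on medium with 150 mM NaCl or without added NaCl. The other 6 arrays carried shoots of *OsERF106MZ*-overexpressing rice (OE) under the same 2 conditions, and their labels do not name the OE line. Each array was a single-dye Agilent rice array with 43734 spots besides the controls, which read 42477 probes.

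Salt reaches a shoot first as a shortage of water and later as sodium in the leaf blade. Abscisic acid (ABA) carries much of the early response: it is made from carotenoids by NCED dioxygenases, it releases SnRK2 kinases from the PP2C phosphatases that hold them inactive, and the kinases then activate bZIP factors such as ABI5. Late embryogenesis abundant (LEA) proteins and dehydrins, which protect membranes and enzymes in drying cells, are classic targets of this pathway, while HKT transporters and water channels set the flow of sodium and water.

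The TNG67 arrays came from 2 slides. Replicates 1 and 3 of both conditions shared slide 1. Replicate 2 of both conditions was on slide 3, which had a scan session of its own, so that salt-treated and control shoots can be compared within each slide. The median spot signal was between 344 and 430.5 intensity units on slide 1 and was 711 and 814.5 on slide 3, over a median local background between 44 and 47. From 80.0% to 88.0% of probes rose well above background, depending on the array, and no spot was saturated. Across the tested probes, replicates 1 and 3 of a condition correlated at r = 0.996 without NaCl and at r = 0.994 with NaCl, and replicate 2 correlated with them at r = 0.976 and between 0.965 and 0.966. A supplementary table numbers replicates 1 and 3 as repeats of 1 sample, and the methods mention pooling of labelled cRNA without naming the number of plants, so p-values measure the spread between arrays, which may be technical in part. Markers of shoot and root tissue were not analysed here, because the tables used pair probes only with loci from the study's lists of genotype differences. A total RNA signal from whole shoots cannot tell fewer cells of a type from less RNA per cell.

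Salt changed 3363 of the 37144 tested probes in TNG67 (9.05%), with 1863 raised (5.02%) and 1500 lowered (4.04%). A probe was counted as changed at a Benjamini-Hochberg adjusted p under 0.05 in limma and a change of more than 2-fold. The rises were larger than the falls. The median log2 fold change was 1.53 among raised probes and -1.31 among lowered probes, and the range over all tested probes ran from -5.68 to 9.41. Of the raised probes, 559 rose by more than 2 on the log2 scale and 108 by more than 4, against 226 and 18 of the lowered probes. The median over all tested probes was -0.02. When replicates 1 and 3 were averaged and treated as 1 sample, 622 raised and 283 lowered probes remained past the thresholds, and all but 2 of these 905 were also among the 3363. The main fit had no slide term. With slide as a fixed term, 2133 raised and 1940 lowered probes passed, and 3362 of the 3363 were among them.

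**Figure D1:**
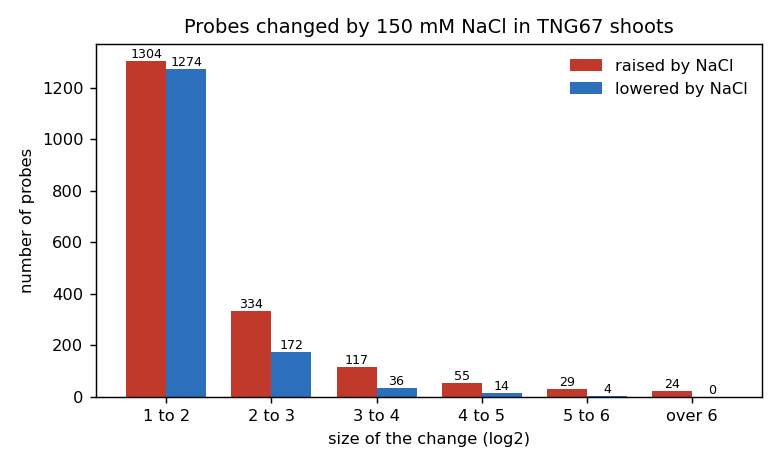
Number of probes raised (red) or lowered (blue) by 150 mM NaCl in TNG67 shoots, by the size of the log2 change (x axis). In the smallest class 1304 probes rose and 1274 fell, whereas beyond a log2 change of 6 there were 24 raised probes and no lowered ones.

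The 3 salt arrays lay on 1 side of the 3 control arrays for 1830 of the 1863 raised and 1478 of the 1500 lowered probes, against 39.2% of all tested probes. The selection favours such probes. The difference was in the called direction in all 3 same-numbered pairs of arrays for 3351 of the 3363, and the pairs shared a direction for 61.4% of all tested probes. On slide 1 the median log2 difference was 1.47 for raised and -1.20 for lowered probes, and on slide 3 it was 1.80 and -1.67. A selection that leaves out slide 3 gave medians that lay closer together. It favours large differences on slide 1, so these medians cannot show whether the slides responded alike. Slide 1 alone called 2147 raised probes, with a median of 1.493 on slide 1 and 1.499 on slide 3, and 1719 lowered probes, with medians of -1.27 and -1.35. The direction on slide 3 was the same for 90.0% of these raised and 94.5% of these lowered probes.

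**Figure D2:**
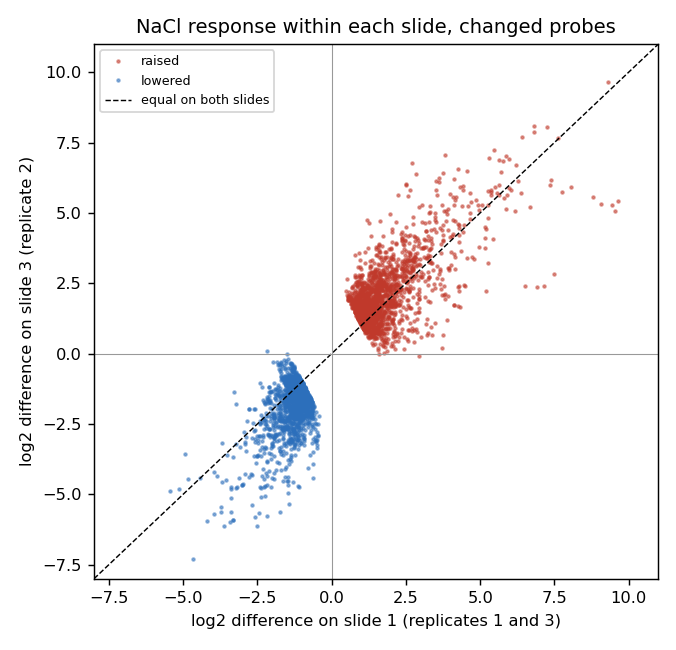
Log2 difference between salt-treated and control TNG67 arrays on slide 1 (x axis, mean of replicates 1 and 3) and on slide 3 (y axis, replicate 2) for the changed probes, raised in red and lowered in blue, with a dashed line where both are equal. Most points lie beyond the line on slide 3: 68.0% of the raised and 75.3% of the lowered probes moved further there.

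Replicate 2 stood apart within both conditions. Among the raised probes, replicate 2 was the highest of the 3 salt arrays for 69.2% and the highest of the 3 control arrays for 54.5%, against 39.7% and 38.8% of all tested probes. The control array of replicate 2 was thus more often high on the probes that salt raised. Slide, scan session and replicate 2 cannot be told apart here.

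A locus of the MSU rice annotation was available for 1606 of the tested probes. Of these, 37.7% changed, with 361 (22.5%) raised and 244 (15.2%) lowered. The loci come from lists of genes that the study chose for their difference between genotypes on these same arrays, so these shares do not describe all rice genes. The genes below were sorted into 14 lists by known role, and 78 of the 105 listed loci could be matched to a tested probe. The others could not be matched through the study's lists of genotype differences, which does not mean that the array lacks a probe for them. Of the 78, salt raised 47 and lowered 3.

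**Figure D3:**
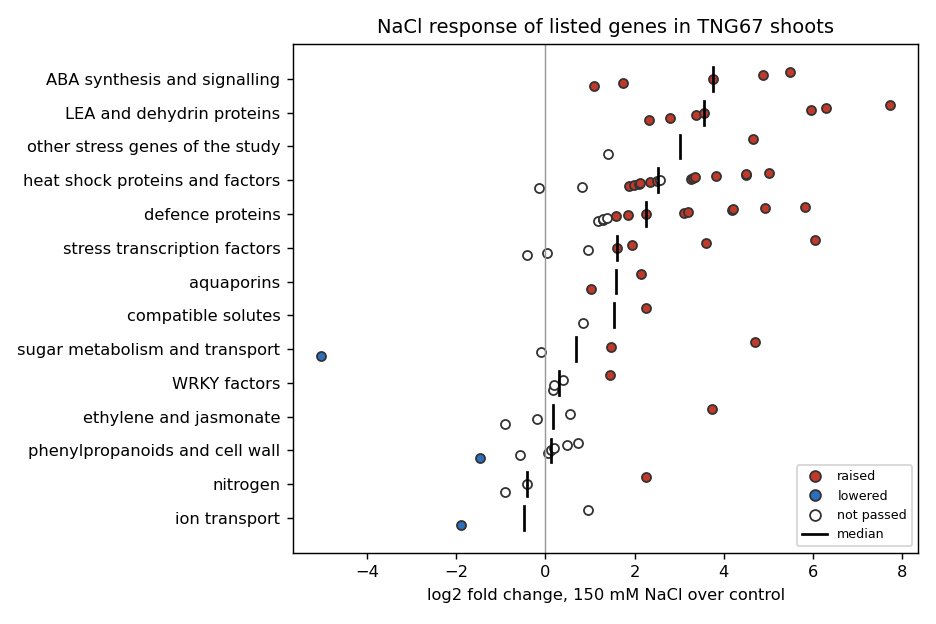
Log2 fold change of 150 mM NaCl over control in TNG67 shoots (x axis) for the tested members of each list (y axis), with red for raised, blue for lowered and white for members that did not pass, and a black line at the median of each list. The ABA list and the LEA and dehydrin list lie wholly to the right of 0, with medians of 3.76 and 3.56, while the cell wall and nitrogen lists hold values on both sides of 0.

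The genes of ABA synthesis and signalling that could be matched to a probe rose in salt-treated TNG67. Of 14 listed loci 5 were matched and tested, and all 5 were raised, with a median log2 fold change of 3.76. The other listed loci were not measured here, so the result does not describe the whole pathway. Of all tested probes 5.02% were raised, and of those with a locus 22.5%. With replicates 1 and 3 averaged and treated as 1 sample, only *OsPP2C68* of the list passed. *OsNCED4* (LOC_Os07g05940), an epoxycarotenoid dioxygenase of ABA synthesis, had log2 signals of 4.23, 5.09 and 4.12 in control replicates 1, 2 and 3 and of 7.81, 12.16 and 8.13 in salt replicates 1, 2 and 3. Every salt array lay above every control array, and salt replicate 2 stood far above the others. The log2 fold change was 4.89 (SE 0.94, adjusted p = 0.00543). Only 1 of the 3 control arrays was well above background, and the value ran from 3.36 to 5.76 over the alternatives. Without salt replicate 2 it was 3.49, past both thresholds. *OsDSM2* (LOC_Os03g03370), a carotene hydroxylase that feeds the carotenoid precursors of ABA, rose less, with 10.78, 10.57 and 10.71 in control and 11.81, 11.999 and 11.54 in salt, a log2 change of 1.098 (SE 0.20, adjusted p = 0.0041). It fell just short of 2-fold without salt replicate 2, at 0.99.

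Genes for PP2C phosphatases and for a kinase of the SnRK2 family were higher as well. *OsPP2C68* (LOC_Os09g15670), a clade A phosphatase that inhibits SnRK2 kinases, read 8.12, 8.77 and 7.54 in the control arrays and 13.26, 14.49 and 13.12 in the salt arrays. The gap between the groups was several times the spread within them, and the log2 change was 5.48 (SE 0.41, adjusted p = 5.54e-05). *OsPP2C30* (LOC_Os03g16170), of the same clade, read 8.84, 10.66 and 8.86 in control and 12.66, 14.56 and 12.42 in salt, with a log2 change of 3.76 (SE 0.64, adjusted p = 0.00306). Replicate 2 was the highest array in both conditions. The kinase gene *OsSAPK1* (LOC_Os03g27280) rose by 1.75 (SE 0.33, adjusted p = 0.00476), from 7.09 ± 0.52 to 8.84 ± 0.66 (SD, n = 3 each). With replicates 1 and 3 averaged, adjusted p in limma was 0.0716 for *OsNCED4*, 0.0692 for *OsDSM2*, 0.0656 for *OsPP2C30* and 0.0818 for *OsSAPK1*.

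Of 7 tested genes for stress-related transcription factors, 4 rose, against 22.5% of tested probes with a locus and 5.02% of all tested probes. *OsHOX24* (LOC_Os02g43330), an HD-Zip factor known to respond to salt and drought, had log2 signals of 5.02, 5.56 and 4.88 in the control arrays and of 10.42, 12.79 and 10.38 in the salt arrays. Even the lowest salt array lay far above the highest control array, and the log2 change was 6.04 (SE 0.64, adjusted p = 0.000293). *OsABI5* (LOC_Os01g64000), a bZIP factor of ABA signalling, read 5.52, 6.07 and 4.56 in control and 7.09, 8.26 and 6.62 in salt, a rise of 1.94 (SE 0.50, adjusted p = 0.0194). Its groups did not overlap, but it passed in only 3 of the 6 fits that left out 1 TNG67 array. It missed the threshold without control replicate 1 (adjusted p = 0.0507), control replicate 3 (0.0731) or salt replicate 2 (0.0567, with a log2 fold change of 1.47). The zinc finger genes *ZFP182* (LOC_Os03g60560) and *ZFP179* (LOC_Os01g62190) rose by 3.59 and 1.60. The NAC genes did not pass. *OsNAP* (LOC_Os03g21060) had a log2 change of 0.95 (SE 0.34, adjusted p = 0.0708), which passed at 1.29 without salt replicate 3 and was 0.59 without salt replicate 2. *OsNAC006* (LOC_Os01g09550) read 9.82, 9.21 and 9.78 in control and 9.75, 9.49 and 9.65 in salt, a log2 change of 0.03 (SE 0.18, adjusted p = 0.93) with overlapping groups.

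The list of other stress genes named by the study held 2 tested members. *OsSRO1c* (LOC_Os03g12820), which codes for a protein of the SRO family linked to stomatal closure and oxidative stress, read 8.04, 9.41 and 8.36 in control and 12.40, 14.96 and 12.38 in salt. All salt arrays were well above all control arrays, and the log2 change was 4.64 (SE 0.62, adjusted p = 0.000864). *OsMAIF1* (LOC_Os02g44990), an F-box gene, read 4.08, 4.82 and 4.37 in control, where 1 of 3 arrays was well above background, and 4.94, 7.18 and 5.36 in salt. Its log2 fold change of 1.404 (SE 0.49) did not pass (adjusted p = 0.0636). It passed in a fit of the TNG67 arrays alone with the replicate number as a block (adjusted p = 0.044), but not on these arrays without the block. In the fit of all arrays but salt replicate 2 the value fell to 0.73. *OsMAIF1* also passed in limma with slide as a fixed term (adjusted p = 0.0107), with the deposited values (2.81, 0.0239) and without salt replicate 1 (1.85, 0.0263).

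**Figure D4:**
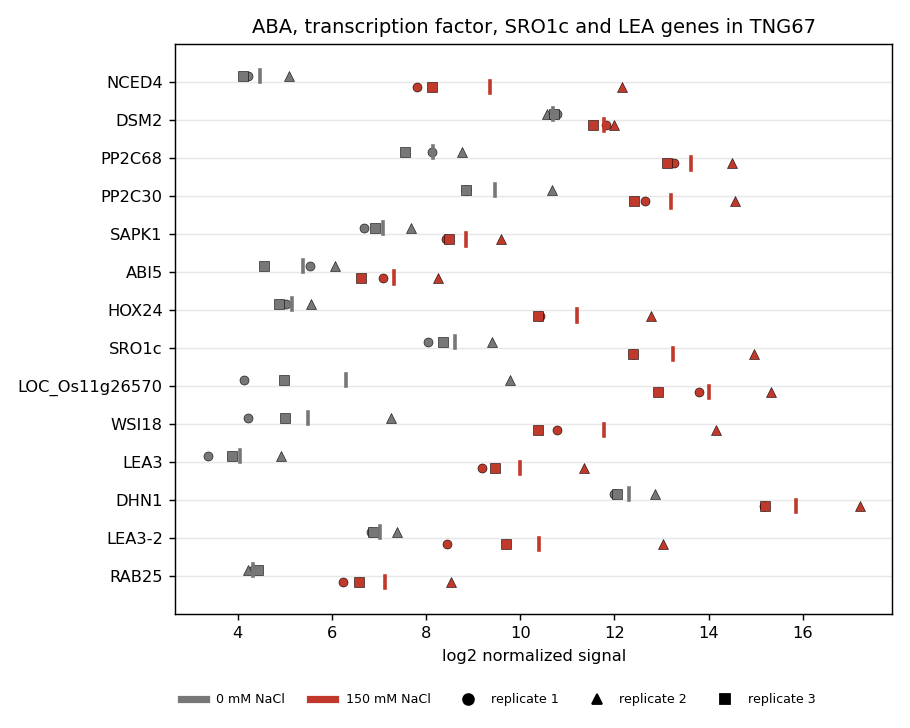
Log2 normalized signal (x axis) of ABA, transcription factor, SRO1c and LEA genes in each TNG67 array, control in grey and 150 mM NaCl in red, with a symbol for each replicate and a bar at the group mean. The red points lie to the right of the grey ones for all 14 genes, the triangle of replicate 2 is the rightmost red point in each, and the control triangle of LOC_Os11g26570, at 9.77, stands far from its other controls.

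All 7 tested LEA and dehydrin genes rose, at a median log2 change of 3.56 and a range from 2.32 to 7.72. The list held 12 loci, and the others could not be matched to a probe. Of all tested probes 5.02% were raised, and of those with a locus 22.5%. With replicates 1 and 3 averaged, *OsLEA3* and *OsDHN1* passed in limma and the others on the list did not (adjusted p from 0.0575 to 0.106). *WSI18* (LOC_Os01g50910), a water stress inducible LEA gene, read 4.23, 7.25 and 5.01 in control and 10.78, 14.16 and 10.38 in salt, a rise of 6.28 (SE 1.08, adjusted p = 0.00315). *OsLEA3* (LOC_Os05g46480) rose from 3.37, 4.91 and 3.88 to 9.19, 11.35 and 9.47, by 5.95 (SE 0.64, adjusted p = 0.000312). Both genes were well above background on 1 of 3 control arrays, so that their control level was close to the background elsewhere. The dehydrin gene LOC_Os11g26570 had a rise of 7.72 (SE 1.18, adjusted p = 0.00169), and the most uneven controls. It read 4.13, 9.77 and 4.98 in the control arrays and 13.80, 15.32 and 12.93 in the salt arrays. Only 1 of its 3 control arrays was well above background. Control replicate 2 lay far above the other controls yet below every salt array, and without it the log2 change was 9.46, so the size of the rise is uncertain.

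*OsDHN1* (LOC_Os02g44870), a dehydrin gene well above background on all control arrays, rose from 12.30 ± 0.48 (SD, n = 3) to 15.18, 17.21 and 15.20, by 3.56 (SE 0.50, adjusted p = 0.00118). *OsLEA3-2* (LOC_Os03g20680) read 6.83, 7.39 and 6.86 in control and 8.45, 13.04 and 9.70 in salt. Its rise of 3.37 (SE 0.88, adjusted p = 0.0211) rested largely on salt replicate 2, without which it was 2.05, and it did not pass without control replicate 1 (adjusted p = 0.0656) or 3 (0.0625). The desiccation-related gene LOC_Os04g33150 rose by 2.32 (SE 0.43, adjusted p = 0.00466), with 1 of 3 control arrays well above background. *RAB25* (LOC_Os01g50700), a dehydrin gene, was not well above background on any control array and was well above background on all 3 salt arrays, at 6.24, 8.54 and 6.58. Its log2 fold change was 2.80 (SE 0.52, adjusted p = 0.00457), or 6.94-fold. This is an estimate from control readings near background and not a lower bound. The log2 value ran from 1.497 to 5.03 over the alternatives and was 2.09 without salt replicate 2. In all, 42 raised probes had no control array well above background, and 52 lowered probes had no salt array well above background.

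Most of the listed heat shock genes rose. Heat shock proteins are chaperones that hold or refold damaged proteins, and heat shock factors (HSFs) are transcription factors that control their genes. Of 16 tested members 13 were raised, at a median log2 change of 2.53, against 22.5% of tested probes with a locus and 5.02% of all. Salt arrays lay wholly above the control arrays for 15 of the members. Arrays of the groups did not overlap, in either direction, for 39.2% of all tested probes and for 60.8% of those with a locus. The factor genes *HSFC2b* (LOC_Os06g35960) and *HSFC1b* (LOC_Os01g53220) rose by 5.02 (SE 0.51) and 4.50 (SE 0.63). *HSFC1b* read 6.57, 6.86 and 6.70 in control and 10.04, 13.10 and 10.49 in salt. *HSFC2a* (LOC_Os02g13800), with 1 of 3 control arrays well above background, rose by 2.33, but did not pass without control replicate 1 (adjusted p = 0.0621). *HSFA2a* (LOC_Os03g53340) read 4.87, 4.88 and 3.93 in control and 5.80, 9.47 and 6.10 in salt and did not pass (2.56, adjusted p = 0.0521). Its value was 1.39 without salt replicate 2, and it passed without salt replicate 1 (adjusted p = 0.0305) or 3 (0.0493). It also passed in limma with slide as a fixed term (adjusted p = 0.00916), on slide 1 alone (1.55, 0.0175) and with the deposited values (4.14, 0.033).

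Genes for large and small chaperones were among those raised. The genes for HSP101 (LOC_Os05g44340), HSP90 (LOC_Os04g01740) and HSP70 (LOC_Os03g16920) rose by 3.30 (SE 0.50), 3.83 (SE 0.70) and 3.34 (SE 0.46). HSP90 was well above background on 1 of 3 control arrays. HSP70 read 7.72, 8.92 and 7.40 in control and 11.12, 11.76 and 11.20 in salt. The small heat shock protein genes LOC_Os02g54140 and LOC_Os01g08860 rose by 4.49 (SE 0.44) and 3.27 (SE 0.46), LOC_Os01g04380 by 2.09 (SE 0.42), and that of the endoplasmic reticulum (LOC_Os04g36750) by 2.50, a call that was lost without control replicate 1 (adjusted p = 0.0522) or 3 (0.0541). Among small heat shock protein genes with neighbouring locus numbers, LOC_Os03g15960, LOC_Os03g16020 and LOC_Os03g16030 rose by 1.88, 1.98 and 2.12. LOC_Os03g16040 had a log2 change of 0.81 (SE 0.26, adjusted p = 0.0496), below the 2-fold limit, which passed at 1.01 without salt replicate 1 and was 0.48 without salt replicate 2. The difference between these genes was not tested. Of them, LOC_Os03g16020 did not pass without control replicate 1 (adjusted p = 0.0726) or 3 (0.0767).

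Most of the listed defence genes rose as well. All 13 defence loci, like the 16 heat shock loci, were added from the study's lists of genotype differences with earlier results of these data known. The counts therefore describe only the loci chosen. Chitinases and glucanases cut fungal cell walls, thaumatin-like proteins and PR4 belong to the pathogenesis-related families, and Bowman-Birk inhibitors block proteases. Of 13 tested members 9 rose and none fell, with a median log2 fold change of 2.25. Among all tested probes with a locus 22.5% rose, and among all tested probes 5.02%. The chitinase gene LOC_Os04g41620 read 6.74, 6.01 and 6.23 in control and 12.37, 11.64 and 12.42 in salt, a rise of 5.82 (SE 0.24, adjusted p = 1.62e-06). Here salt replicate 2 was the lowest of the salt arrays, unlike in the ABA and LEA genes. Its neighbour by locus number, the chitinase gene LOC_Os04g41680, rose from 6.09, 5.59 and 5.67 to 10.72, 10.99 and 10.42, by 4.92 (SE 0.34, adjusted p = 3.95e-05). The thaumatin-like gene LOC_Os12g43450 rose by 4.21 (SE 0.23, adjusted p = 1.22e-05), the glucanase gene LOC_Os01g71670 by 4.18 (SE 0.49, adjusted p = 0.000479) and *PR4* (LOC_Os11g37970) by 3.20 (SE 0.37, adjusted p = 0.00044).

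Among 4 neighbouring Bowman-Birk inhibitor genes, LOC_Os01g03360, LOC_Os01g03390 and LOC_Os01g03340 rose by 3.11, 2.25 and 1.84. The fourth, LOC_Os01g03330, had a log2 change of 1.29 (SE 0.51, adjusted p = 0.0912). In a fit of the 6 TNG67 arrays alone with the replicate number as a block it passed (adjusted p = 0.0199). The thaumatin-like gene LOC_Os03g46060 (1.37, adjusted p = 0.0902 in the fit of all arrays) also passed there (0.0249). So did the glucanase gene LOC_Os01g71680 (1.28, adjusted p = 0.0621 in the fit of all arrays and 0.00986 there). On the TNG67 arrays alone without the block, none of these passed. Without the block and with the OE arrays in the fit, LOC_Os01g03330 passed in 0 of the 6 fits that left out an array, with values from 0.83 to 1.62 (lowest adjusted p = 0.0654). Among those fits LOC_Os03g46060 passed without control replicate 2 (1.86) or salt replicate 3 (1.80) and was 0.82 without salt replicate 2, and LOC_Os01g71680 passed only without control replicate 2 (1.57). With slide as a fixed term LOC_Os01g03330, LOC_Os03g46060 and LOC_Os01g71680 passed in limma (adjusted p = 0.0363, 0.00257 and 0.000934), as they did on slide 1 alone (0.0475, 0.0173 and 0.015). LOC_Os01g71680 also passed with the deposited values (1.89, adjusted p = 0.0229). The chitinase gene LOC_Os06g51050 rose by 1.57 (SE 0.46, adjusted p = 0.0338). It missed the threshold on the TNG67 arrays alone, at adjusted p = 0.0646 without the block and 0.0533 with it. It passed in only 2 of the 6 fits that left out an array, those without control replicate 2 or salt replicate 1. Its neighbour LOC_Os06g51060 had a log2 change of 1.18 (SE 0.42, adjusted p = 0.0688), which passed at 1.78 without control replicate 2. LOC_Os06g51060 also passed in limma with slide as a fixed term (adjusted p = 0.00724) and on slide 1 alone (1.58, 0.00372). Copies of such families can share sequence, and cross-hybridization between neighbours was not tested.

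The response of 3 of these defence genes differed between the genotypes. In OE shoots, compared with their own controls, LOC_Os04g41620, LOC_Os04g41680 and LOC_Os12g43450 had log2 fold changes of 1.44, 1.495 and 1.15, and the interaction of salt and genotype had adjusted p of 0.00116, 0.0334 and 0.0119. Over all tested probes 35 (0.0942%) passed that test, and with replicates 1 and 3 averaged 0 passed by limma, where 696 had an unadjusted p under 0.05 and a difference of over 2-fold. No member of the ABA, LEA or heat shock lists named here passed it.

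Genes that move sugar, water and ions changed in both directions. *SWEET15* (LOC_Os02g30910), a sugar exporter gene, read 8.90, 9.58 and 8.73 in control and 13.96, 13.34 and 13.98 in salt, a rise of 4.69 (SE 0.48, adjusted p = 0.000258). *OsCIN2* (LOC_Os04g33740), a cell wall invertase gene that splits sucrose outside the cell, fell from 10.57, 10.52 and 10.37 to 4.79, 5.70 and 5.90, by 5.02 on the log2 scale (SE 0.49, adjusted p = 0.000201). The control arrays of *OsCIN2* were tightly grouped and no salt array came near them. The sucrose synthase gene *SUS4* (LOC_Os03g22120) rose by 1.48 (SE 0.30, adjusted p = 0.00724).

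The plasma membrane aquaporin gene *PIP1.3* (LOC_Os02g57720) rose from 11.59, 10.97 and 11.67 to 13.91, 12.63 and 14.13, by 2.15 (SE 0.35, adjusted p = 0.00235), and on slide 3 both conditions lay lower than on slide 1. The tonoplast aquaporin gene *TIP1.2* (LOC_Os01g74450) rose by 1.02 (SE 0.22, adjusted p = 0.00803), at the edge of the 2-fold limit. It fell below that limit without control replicate 2 (0.81), salt replicate 1 (0.99) or salt replicate 3 (0.95). Of the listed sodium transporter genes that could be matched to a probe, *OsHKT1.4* passed in the fit of all arrays and *OsHKT1.1* did not. *OsHKT1.1* (LOC_Os04g51820) read 5.71, 5.39 and 5.49 in control and 6.56, 6.98 and 5.90 in salt. In that fit its log2 change was 0.95 (SE 0.26, adjusted p = 0.024), under 2-fold. It passed without control replicate 1 (1.04) or salt replicate 3 (1.24), while its value was 0.70 without salt replicate 2. *OsHKT1.1* also passed in limma with the deposited values (1.49, adjusted p = 0.0153) and with the processed signals (1.498, 0.0149). *OsHKT1.4* (LOC_Os04g51830), its neighbour by locus number, read 6.69, 6.26 and 6.93 in control and 5.24, 4.45 and 4.49 in salt, a fall of 1.90 (SE 0.26, adjusted p = 0.000939). Only 1 of its 3 salt arrays was well above background.

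Among genes of metabolism, *P5CS2* (LOC_Os01g62900), a proline synthesis gene, rose by 2.25 (SE 0.46, adjusted p = 0.00718), from 7.34, 7.56 and 7.25 to 9.62, 10.01 and 9.28. The galactinol synthase gene *GOLS1* (LOC_Os03g20120) had a log2 change of 0.84 (SE 0.16, adjusted p = 0.00576), under the 2-fold limit. The cytosolic glutamine synthetase gene *GS1.3* (LOC_Os03g50490), with 1 of 3 control arrays well above background, rose by 2.26 (SE 0.51). The nitrate transporter gene *NRT2.3* (LOC_Os01g50820) had a value of -0.90 (adjusted p = 0.0354), which reached -1.04 and passed without control replicate 3. With the deposited values *NRT2.3* passed in limma at -1.57 (adjusted p = 0.0158). The phenylalanine ammonia-lyase gene LOC_Os04g43800, at the entry of phenylpropanoid synthesis, fell by 1.47 (SE 0.28, adjusted p = 0.00471) and was the only one of 7 phenylpropanoid and cell wall genes to pass. *TIFY11c* (LOC_Os03g08320), a repressor gene of jasmonate signalling, rose by 3.73 (SE 0.64, adjusted p = 0.00305), and the ethylene-forming oxidase gene LOC_Os02g53180 had a value of -0.90 (adjusted p = 0.012). Of 4 WRKY factor genes only *WRKY11* (LOC_Os01g43650) passed, with a rise of 1.46 (SE 0.29). Among all tested probes with a locus 37.7% passed in either direction, and among all tested probes 9.05%.

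The largest rises among probes with a locus included genes outside these lists. LOC_Os11g07911 had the largest change of all tested probes. It read 4.40, 5.75 and 4.48 in control and 13.64, 15.40 and 13.82 in salt, a log2 change of 9.41 (SE 0.58, adjusted p = 1.74e-05), from a level at which 1 of 3 control arrays was well above background. LOC_Os04g33920 rose from 5.36, 5.13 and 4.03 to 12.49, 12.80 and 12.18, by 7.65 (SE 0.34, adjusted p = 2.17e-06), with little spread among the salt arrays. Its interaction with genotype passed (adjusted p = 0.0199), with a log2 fold change of 3.78 in OE. LOC_Os05g31670, LOC_Os05g05930, LOC_Os03g07180, LOC_Os03g19290, LOC_Os10g36180 and LOC_Os06g23350 rose by 7.51, 7.16, 7.09, 6.90, 6.83 and 6.37. All of these but LOC_Os03g19290 and LOC_Os10g36180 had 1 of 3 control arrays well above background. With the dehydrin gene LOC_Os11g26570 and *WSI18*, these made up the 10 largest rises. Salt replicate 2 was the highest salt array in all 10, and control replicate 2 was the highest control array in 9, the exception being LOC_Os04g33920.

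Among the 10 largest falls of probes with a locus, LOC_Os03g04530 read 10.05, 11.02 and 10.15 in control and 4.31, 3.74 and 6.58 in salt, a fall of 5.53 on the log2 scale (SE 0.68, adjusted p = 0.000574), to a level at which 1 of 3 salt arrays was well above background. LOC_Os10g40510 fell from 13.34, 12.82 and 11.60 to 8.20, 6.88 and 8.34, by 4.78 (SE 0.50, adjusted p = 0.000282). LOC_Os02g37190 fell from 9.81, 11.11 and 9.53 to 6.23, 5.49 and 6.36, by 4.12 (SE 0.36, adjusted p = 0.000128). The groups were wholly separated for each of these genes. LOC_Os05g06140, LOC_Os11g42450, LOC_Os05g34700, LOC_Os03g47940, LOC_Os09g19229 and LOC_Os03g19670 had log2 fold changes of -4.47, -4.46, -4.42, -4.30, -4.17 and -4.02, and *OsCIN2* completes the 10. In 9 of the 10, salt replicate 3 was the highest salt array. The spread among salt arrays was wide for several, as for LOC_Os11g42450, which read 6.31, 4.54 and 8.73 with NaCl.

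**Figure D5:**
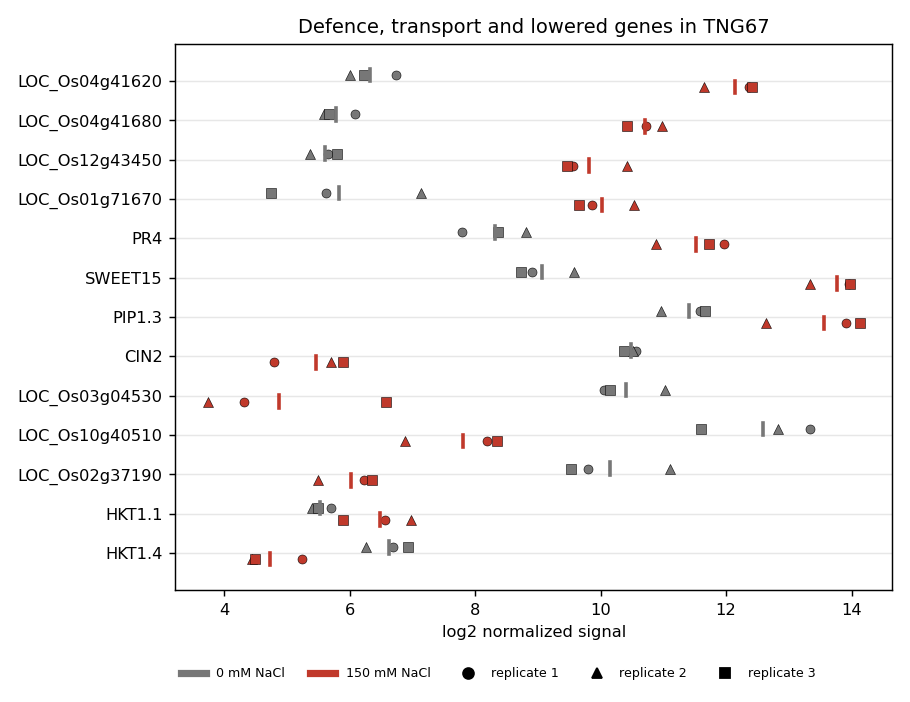
Log2 normalized signal (x axis) of defence, transport and lowered genes in each TNG67 array, control in grey and 150 mM NaCl in red, with a symbol for each replicate and a bar at the group mean. For *CIN2* the control arrays lie between 10.37 and 10.57 and the salt arrays between 4.79 and 5.90, while for *HKT1.1* the groups lie close together, between 5.39 and 5.71 and between 5.90 and 6.98.

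Some of the strongest responses belonged to probes without a locus. CUST_30518 read 4.54, 11.55 and 5.43 in control and 14.49, 16.99 and 14.77 in salt, a log2 change of 8.24 (SE 1.44, adjusted p = 0.00343), and CUST_1193 read 6.10, 12.02 and 7.23 in control and 16.05, 17.09 and 16.34 in salt, a log2 change of 8.05 (SE 1.15, adjusted p = 0.00127). As for the dehydrin gene LOC_Os11g26570, control replicate 2 lay far above the other controls, and without it the values were 10.43 and 9.83. Of the falls, CUST_32622 had a log2 change of -5.25 (SE 0.77, adjusted p = 0.00139). CUST_18394 had -5.68 (SE 1.45, adjusted p = 0.0211), from 12.66 and 12.88 in control replicates 1 and 3, since the spot of control replicate 2 was an outlier and was left out, to 5.82, 5.90 and 9.54 in salt. It did not pass in 4 of the 5 fits that left out a further array, with adjusted p between 0.0564 and 0.0891.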

How the data were processed

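The authors deposited the scanner output of each array, made with Agilent Feature Extraction 10.7.1.1, which gives spot signals and local background as intensity values without normalization between arrays. The authors also deposited log2 normalized values, used as an alternative. Median spot signals were background-corrected with limma 3.58.1 in R 4.3.3 (normexp, offset 0), 1417 control spots on each array and all spots marked as outliers were dropped, arrays were quantile-normalized and spots of a probe were averaged. A probe entered the test if 3 or more of the 12 arrays had it well above background, and 5333 did not. The fit (lmFit and eBayes) had the means of the 4 groups as its terms and no slide term, with the contrast TNG67 with NaCl less TNG67 without.

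Replicate numbers came from the titles. Deviations from the group means correlated at 0.357, 0.487 and 0.382 between same-numbered TNG67 arrays, each over the limit of 0.1 set for pairing. Between replicates 1 and 3, which share a slide, they correlated at 0.309 and 0.327, and between either of these and replicate 2 at -0.399 to -0.424, so the pairing by number cannot be told apart from the slide. Blocked values stand beside those calls that they alter. The 6 TNG67 arrays are few, and their number limits the precision.

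Probes were named by the locus that a supplementary gene table of the study gives (1182 probes) or, for 446 loci of a second such table, by the only probe whose genotype difference in the deposited values matched within 2e-05. Of 424 loci in both tables, 423 gave the same probe. The members, the lists and the loci in them were chosen with earlier results of these data known, and 62 of the 105 loci were added from the study's locus lists. Named are the 10 largest rises and 10 largest falls with a locus that passed and moved the same way in all 3 pairs. Further named are every locus of the initial lists that could be matched to a probe, added loci of known role, and 2 rises and 2 falls without a locus. Lists by gene description, shoot and root markers included, were not used here because the tables hold no descriptions. Roles are background knowledge. The authors' own fold changes were used only to place loci on probes, and their p-values not at all. The alternatives were another offset, processed signals scaled to the 75th percentile, the deposited values, 3 other filters, the TNG67 arrays alone, the replicate block, slide as a fixed or random term, replicates 1 and 3 averaged, slide 1 alone, the methods' t-test for each probe with Benjamini-Hochberg adjustment, and each TNG67 array left out.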

Additional observations from a re-analysis of the deposited data

Results flagged for a closer look

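The response to NaCl differed between TNG67 and OE, by the test of the interaction, for 4 of the genes named above. The difference, taken as OE less TNG67 on the log2 scale, was -4.37 for LOC_Os04g41620, -3.87 for LOC_Os04g33920, -3.43 for LOC_Os04g41680 and -3.06 for LOC_Os12g43450. In each of them salt raised the gene in TNG67 by more than in OE, whose responses were 1.44, 3.78, 1.495 and 1.15. Within slide 3, the slide that held both genotypes, the differences were -4.28, -3.99, -4.57 and -4.04 in the same order, with 1 array per group, and between slides 1 and 2 they were -4.42, -3.81, -2.86 and -2.57. All 4 passed with slide as a fixed term (adjusted p between 0.000243 and 0.0107) as well as when slide was a random block (between 3.03e-05 and 0.00331), and none passed with replicates 1 and 3 averaged (between 0.266 and 0.709). Groups of 3 arrays are small, and the number of probes passing this test lay between 8 and 123 with each TNG67 array left out. Values of these 4 genes in those fits are not given here, and no OE array was left out.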

How the results depend on the processing

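Counts are of probes raised and lowered by NaCl in TNG67, 1863 and 1500 (3363 in all). Both moved by over 1.5 times under 2 alternatives. With replicates 1 and 3 averaged, 905 passed (622 and 283). With the methods' t-test, 970 passed after Benjamini-Hochberg adjustment (556 and 414), and 3108 had an unadjusted p under 0.05 and a change of over 2-fold. With each TNG67 array left out, the total lay between 2658 and 3736, raised probes between 1507 and 2103 and lowered probes between 1151 and 1633. With the replicate block, fitted on the TNG67 arrays alone, 3596 passed (1939 and 1657), against 2730 on these arrays without a block. With slide as a fixed term 4073 passed (2133 and 1940). With slide as a random block, at an estimated correlation of 0.53 within slides, 4074 passed (2121 and 1953). Beyond the genes named above, the calls of named genes in the block fit were those of the fit of all arrays. The 35 probes with an interaction became 23 among probes well above background on all arrays, 213 with slide as a fixed term, 286 as a random block and 0 with replicates 1 and 3 averaged (696 at an unadjusted p under 0.05 and over 2-fold), and lay between 8 and 123 with each TNG67 array left out, the highest being without salt replicate 2. Of 84 named probes 71 passed, 62 of them in every fit that left out an array and 25 under every other alternative. With the TNG67 arrays alone 7 of the 71 did not pass, namely *OsABI5*, *OsLEA3-2*, *GS1.3*, *HSFC2a*, LOC_Os03g15960, LOC_Os03g16020 and LOC_Os06g51050. On slide 1 alone *OsDSM2* (0.93) and *TIP1.2* (0.92) stayed under 2-fold, *TIP1.2* (LOC_Os01g74450) also with 3 other ways of processing the signals. With replicates 1 and 3 averaged 33 of the 71 did not pass, and with the methods' t-test 44. Besides the ABA and LEA genes given above, the 33 included HSP90, HSP101, *HSFC2a*, LOC_Os04g36750, LOC_Os01g04380, LOC_Os03g15960, LOC_Os03g16020 and LOC_Os03g16030. The rest were LOC_Os01g03340, LOC_Os01g03390, LOC_Os06g51050, *OsABI5*, *ZFP179*, *PIP1.3*, *TIP1.2*, *P5CS2*, *GS1.3*, *SUS4*, *TIFY11c*, *WRKY11*, LOC_Os04g43800, CUST_30518, CUST_1193 and CUST_18394. *OsNAC006* (LOC_Os01g09550), which did not pass, had a value of -0.094 on slide 1 alone and between -0.17 and 0.14 with each array left out. *OsHKT1.4* (LOC_Os04g51830) and *WRKY11* (LOC_Os01g43650) did not reach 2-fold with an offset of 50, at -0.96 and 0.93. Some named probes that did not pass in the fit of all arrays passed elsewhere. With slide as a fixed or a random term 6 did, namely *OsMAIF1*, *HSFA2a*, LOC_Os01g03330, LOC_Os01g71680, LOC_Os03g46060 and LOC_Os06g51060. With the deposited values 5 did, namely *OsMAIF1*, *HSFA2a*, *OsHKT1.1*, *NRT2.3* and LOC_Os01g71680. With the processed signals *OsNAP* passed besides these, at 1.03. The causes of these shifts were not tested. With 3 arrays per group, some possibly of 1 sample, and several control levels near background, sizes of the largest folds are uncertain.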
